A study of Mus musculus with 6 samples.

Results

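The 10 genes described here encode chains of hematopoietic cytokine receptors: Csf1r, Csf2ra, Csf2rb, Csf3r, Il3ra, Il6ra, Il6st, Il7r, Ifngr1 and Ifnar1. They were chosen by name, as probe sets whose platform symbol is one of these, and each of the 10 had exactly 1 probe set, out of 19938 genes with a probe set of a single symbol. They were measured in long-term hematopoietic stem cells (LT-HSCs), the marrow cells that sustain blood formation, of WT mice and of Lxn-/- mice, which lack latexin, an inhibitor of metallocarboxypeptidases. All mice were C57BL/6 females of 8 to 12 weeks. The WT mice carried an intact latexin gene, and in Lxn-/- mice exons 2 to 4 of it were deleted, with loss of the protein. Cells were sorted as Lin-, Sca1+, c-Kit+, CD34- and negative for a marker written as Flt2 in the labels. There were 3 pools of each genotype, each of close to 100000 cells from 10 to 20 mice and each read on 1 Affymetrix MoGene-1-0-st-v1 array, so that errors measure the spread between pools of mice.

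Cytokine receptors carry signals from colony-stimulating factors, interleukins and interferons into blood cells. Except for Csf1r, which is itself a tyrosine kinase, the chains described here have no kinase of their own. Binding of the ligand brings receptor chains together, and Janus kinases bound to the tails of the signalling chains become active. STAT proteins then carry the signal to the nucleus. A ligand-specific alpha chain often pairs with a shared chain, so that Csf2rb serves GM-CSF, IL-3 and IL-5 and Il6st (gp130) serves the IL-6 family. In marrow, Csf1r and Csf3r are best known from monocytes and neutrophils, Il7r from lymphoid progenitors, and the interferon receptors from nearly all cells.

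All values are log2 expression values normalized by the authors, and differences are Lxn-/- minus WT on that scale. The probe set of the deleted gene, Lxn, read 8.99, 9.09 and 9.55 for WT and 8.66, 8.78 and 8.78 for Lxn-/-, here and throughout in the order of replicates 1, 2 and 3. The sources used here do not say whether its probes lie in the deleted exons. All 13 measured LT-HSC markers, among them Kit, Procr, Mecom and Hlf, lay above background, taken as 6.93, the 95th percentile of 1210 odorant and vomeronasal receptor probe sets, which blood cells are not known to use. Cd34 and Flt3 RNA also lay above it, by 6.21 and 5.02, although the gate selected cells without CD34 protein on their surface. The array medians ran from 7.765 to 7.907.

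None of the 10 receptor genes could be called different between Lxn-/- and WT LT-HSCs. In limma, adjusted over all 23410 probe sets with a symbol, 0 of 10 passed an adjusted p of 0.05, against 0% of all probe sets, and the lowest adjusted p among them was 0.993. At an unadjusted p under 0.05 there were also 0 of 10, against 3.9% of all probe sets. The genotype means of 5 genes were higher in Lxn-/- and those of 5 lower, with a median difference of 0.009 against -0.013 over all genes. The differences ran from -0.18 for Il7r to 0.18 for Csf3r. The median size of the difference was 0.069 for the receptors and 0.061 for all genes. In 1 of 10 genes, Ifnar1, the values of the genotypes did not overlap, against 8.98% of all probe sets, 3.6% with all Lxn-/- pools higher, as in Ifnar1, and 5.38% with all of them lower. A sorted pool is a bulk sample, in which fewer cells of a type and less RNA per cell cannot be told apart.

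A p that misses the threshold does not show that levels were equal, so the confidence intervals matter here. The 95% interval of the difference lay within 1 log2 unit of 0 for all 10 genes and within 0.5 for 9 of 10, with Il7r outside. The bound farther from 0 corresponded to a 1.13-fold difference for Ifnar1 at the narrow end and a 1.7-fold difference for Il7r at the wide end. The median half-width of the interval was 0.29 over the receptors and 0.19 over all genes. For single genes an exact two-sided permutation test of 3 arrays against 3 cannot give a p below 0.1, and only Ifnar1 reached that value.

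**Figure D1:**
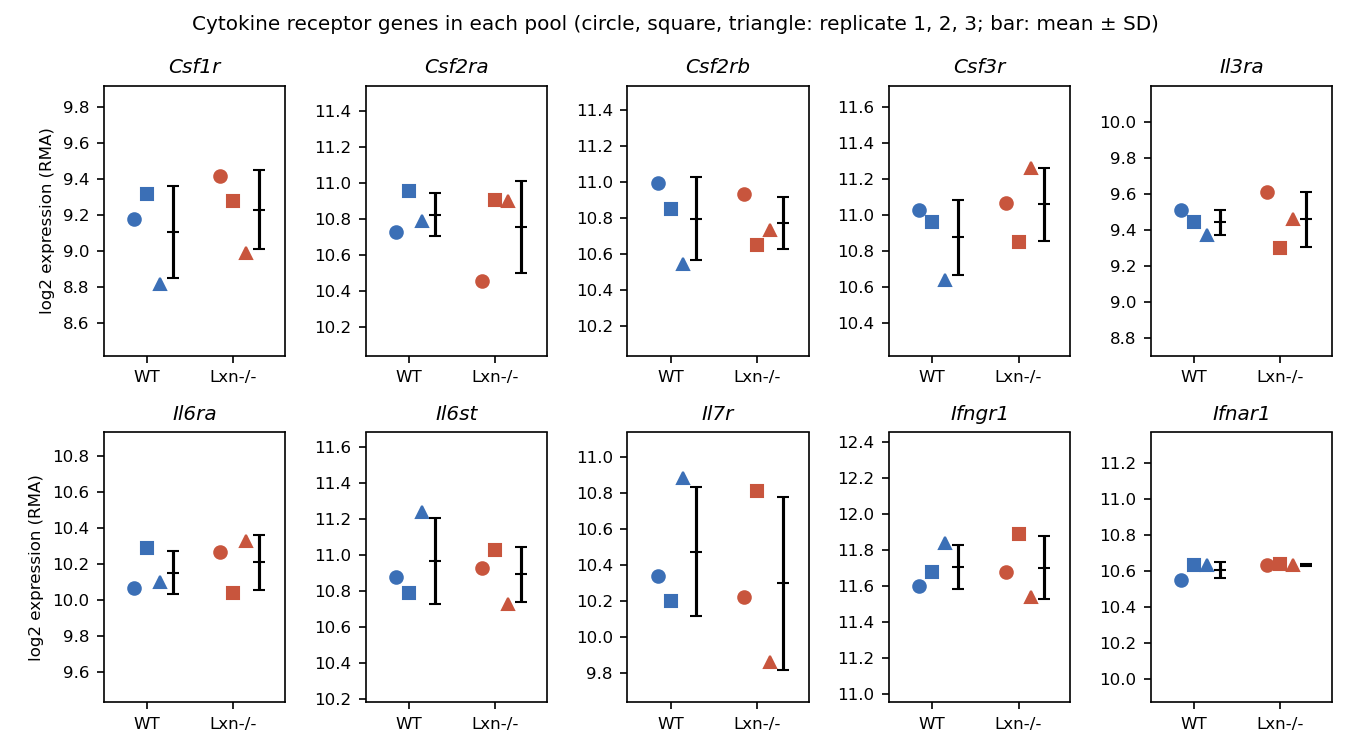
Log2 expression (vertical axis, each panel spanning the same range) of the 10 receptor genes in the 3 WT and 3 Lxn-/- pools, with symbols for replicates and bars for mean ± SD. The genotypes overlap in every panel except that of Ifnar1, where the gap is 0.0013, and Il7r has the widest spread within each genotype.

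Promoter sequences are shown for 4 genes whose values moved together or against each other between pools, as described further on: Csf3r on one side and Il7r, Il6st and Ifngr1 on the other. The sequences are from RefSeq, build GRCm38.p6, cover the 250 bases before the annotated start, and read 5′ to 3′ on the gene's strand. Promoters of 8 of the 10 genes, matched by symbol, were searched. Csf2rb had no entry, and Csf1r was left out of the search. Capitals mark matches on either strand to AGGAAG, a core bound by Ets factors such as PU.1, to TTGCNNAA, a part of C/EBP sites, or to TTCNNNGAA, the palindrome bound by STAT dimers.
Csf3r (chr4:126024409-126024658, + strand): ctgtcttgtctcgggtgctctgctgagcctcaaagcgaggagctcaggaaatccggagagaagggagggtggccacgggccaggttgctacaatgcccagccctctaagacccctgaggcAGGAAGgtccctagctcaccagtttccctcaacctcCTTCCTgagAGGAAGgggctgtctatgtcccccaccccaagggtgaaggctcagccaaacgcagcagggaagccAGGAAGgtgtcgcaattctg
Il7r (chr15:9529877-9530126, - strand): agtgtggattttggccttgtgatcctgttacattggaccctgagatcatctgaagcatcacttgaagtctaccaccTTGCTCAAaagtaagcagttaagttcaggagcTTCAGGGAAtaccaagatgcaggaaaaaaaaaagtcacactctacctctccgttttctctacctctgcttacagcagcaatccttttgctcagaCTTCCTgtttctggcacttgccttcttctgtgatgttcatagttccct
Il6st (chr13:112463820-112464069, + strand): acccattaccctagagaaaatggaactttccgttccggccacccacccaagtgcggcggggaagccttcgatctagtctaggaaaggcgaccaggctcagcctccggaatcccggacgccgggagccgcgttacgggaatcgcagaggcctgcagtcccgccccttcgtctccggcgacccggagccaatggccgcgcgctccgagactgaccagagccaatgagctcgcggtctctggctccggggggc
Ifngr1 (chr10:19591699-19591948, + strand): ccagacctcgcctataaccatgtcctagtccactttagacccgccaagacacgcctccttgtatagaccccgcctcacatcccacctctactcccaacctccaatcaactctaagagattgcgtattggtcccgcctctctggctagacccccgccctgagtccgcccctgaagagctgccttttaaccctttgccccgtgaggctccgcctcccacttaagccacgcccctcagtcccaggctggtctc

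The Csf3r window held 4 matches to AGGAAG and none to the other motifs. The Il7r window held 1 match each to AGGAAG, TTGCNNAA and TTCNNNGAA. The windows of Il6st and Ifngr1 held no match to any of the 3 motifs. Over the 8 receptor promoters, AGGAAG was found in 6, in Csf2ra, Csf3r, Il3ra, Il6ra, Il7r and Ifnar1, and over all 32851 promoter windows of the table in 29.5%. TTGCNNAA was found in 2 of the 8, Il3ra and Il7r, and in 9.56% of all windows. In Il3ra that match directly followed the AGGAAG match. TTCNNNGAA was found in Il7r alone of the 8, and in 7.02% of all windows. A match describes the letters in the window and does not show that a factor binds.

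Among receptors of colony-stimulating factors, Csf3r, the receptor of the neutrophil growth factor G-CSF, gave 11.03, 10.96 and 10.64 in WT and 11.07, 10.85 and 11.26 in Lxn-/-. WT replicate 3 was lowest and Lxn-/- replicate 3 highest, and Lxn-/- replicate 2 lay between WT values. The difference was 0.18 (SE 0.13, 95% confidence interval -0.12 to 0.49, unadjusted p = 0.202 and adjusted p = 0.993 in limma). It was the lowest unadjusted p of the 10 genes.

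Csf1r, the M-CSF receptor that marks monocytes and macrophages, gave 9.18, 9.32 and 8.82 in WT and 9.42, 9.28 and 8.99 in Lxn-/-. In each genotype replicate 3 was lowest, and the groups overlapped. The difference of 0.13 (SE 0.15, 95% confidence interval -0.22 to 0.48) became -0.02 without WT replicate 3.

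Csf2ra, the GM-CSF-binding alpha chain, gave 10.73, 10.96 and 10.79 in WT and 10.46, 10.91 and 10.90 in Lxn-/-. Lxn-/- replicate 1 was lowest, and the other Lxn-/- pools lay within the WT range. The difference was -0.072 (SE 0.13, 95% confidence interval -0.37 to 0.23).

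Csf2rb, the signalling chain shared by GM-CSF, IL-3 and IL-5, gave 10.99, 10.85 and 10.54 in WT and 10.93, 10.65 and 10.73 in Lxn-/-. All Lxn-/- values lay within the WT range, and the difference was -0.023 (SE 0.13, 95% confidence interval -0.31 to 0.27). Mice carry a close copy, Csf2rb2, whose product serves IL-3, and arrays may not separate these genes fully. The probe set of Csf2rb2 differed by 0.028 (SE 0.11). Il3ra, the IL-3-binding alpha chain, gave 9.51, 9.44 and 9.37 in WT and 9.61, 9.30 and 9.46 in Lxn-/-, with the WT pools inside the Lxn-/- range and a difference of 0.018 (SE 0.092, 95% confidence interval -0.19 to 0.23).

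The third alpha chain that pairs with Csf2rb is Il5ra, the IL-5 receptor of eosinophils and some B lineage cells. It had the widest gap among the 7 partner chains picked out here, which are not all that were measured. Its values were 8.80, 8.51 and 8.42 in WT and 7.67, 8.13 and 7.60 in Lxn-/-. Every Lxn-/- pool was below every WT pool. The difference was -0.78 (SE 0.15, 95% confidence interval -1.13 to -0.42), with an unadjusted p of 0.00104 and an adjusted p of 0.993 in limma, so that it did not pass over all probe sets. Whether it differs from the difference of Csf2rb was not tested. The eosinophil granule gene Epx had 10.63, 12.19 and 9.66 in WT and 9.78, 10.42 and 8.54 in Lxn-/-, and Prg2 differed by -1.09 (SE 0.46). All 8 measured plasma cell markers had lower values in every Lxn-/- pool than in any WT pool, beside 5.38% of all probe sets, with list means from 10.73 to 11.19 in WT and from 10.35 to 10.42 in Lxn-/-. The 8 measured mast cell, basophil and eosinophil markers, Il5ra among them, had list means from 9.58 to 9.91 in WT and from 8.51 to 9.67 in Lxn-/-. No marker of either list had a mean below background. The part of these cells in the value of Il5ra was not tested.

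Il6ra, which binds IL-6, gave 10.07, 10.29 and 10.10 in WT and 10.27, 10.04 and 10.33 in Lxn-/-. Both genotypes covered nearly the same range, and the difference was 0.066 (SE 0.10, 95% confidence interval -0.16 to 0.29). Il6st, the gp130 chain that signals for IL-6 and its relatives, gave 10.88, 10.79 and 11.24 in WT and 10.93, 11.03 and 10.73 in Lxn-/-. WT replicate 3 was highest and Lxn-/- replicate 3 lowest. Its difference was -0.075 (SE 0.13, 95% confidence interval -0.38 to 0.23). The gp130 partners Lifr and Osmr, which bind LIF and oncostatin M, differed by 0.18 (SE 0.26) and 0.028 (SE 0.27), and their means lay only 0.13 and 0.40 above the background level.

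Il7r, the alpha chain of the receptors for IL-7 and TSLP and a gene of early lymphoid cells, varied most. It had 10.34, 10.20 and 10.88 in WT and 10.22, 10.81 and 9.86 in Lxn-/-. WT replicate 3 and Lxn-/- replicate 2 were high and Lxn-/- replicate 3 was low, so that the pools of each genotype spanned most of the other's range. The difference of -0.18 (SE 0.25, 95% confidence interval -0.76 to 0.41) became 0.027 without WT replicate 3, 0.04 without Lxn-/- replicate 3 and -0.43 without Lxn-/- replicate 2. Crlf2, which pairs with Il7r to bind TSLP, differed by 0.12 (SE 0.072), and Il2rg, its partner for IL-7, was not analysed here.

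Ifngr1, the ligand-binding chain for interferon gamma, gave 11.60, 11.68 and 11.84 in WT and 11.68, 11.89 and 11.54 in Lxn-/-. The genotype means were both 11.70 and the 95% confidence interval ran from -0.24 to 0.24. Ifnar1, a chain of the receptor for type I interferons, gave 10.55, 10.63 and 10.63 in WT and 10.63, 10.64 and 10.63 in Lxn-/-. Its groups did not overlap, but the lowest Lxn-/- value, 10.631, and the highest WT value, 10.630, were 0.0013 apart, and with quantile normalization or a common median the groups overlapped. The difference was 0.034 (SE 0.062, 95% confidence interval -0.11 to 0.18, exact permutation p = 0.1). The partner chains Ifngr2 and Ifnar2 differed by -0.074 (SE 0.078) and -0.012 (SE 0.071).

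**Figure D2:**
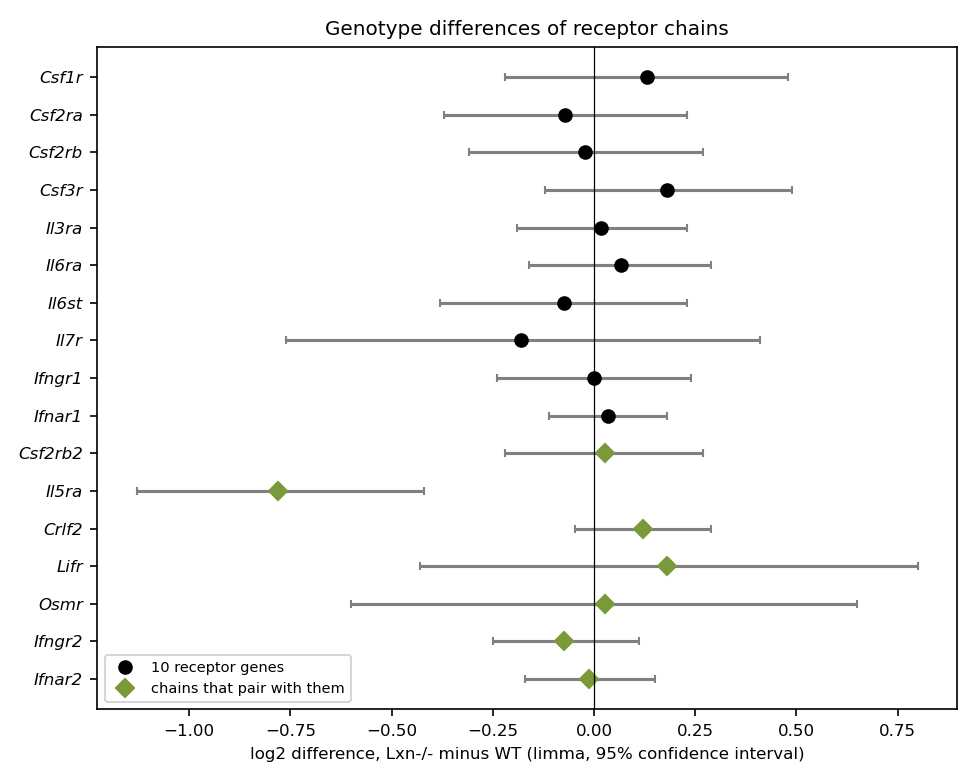
Log2 difference between genotypes with its 95% confidence interval from limma (horizontal axis) for the 10 receptor genes and for 7 chains that pair with them. The intervals of all 10 receptor genes include 0, and that of Il5ra runs from -1.13 to -0.42.

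The receptor genes also differed in how much they varied between arrays. The SD used for this spans both genotypes, so it includes any difference between them. Over all 6 arrays the SD was 0.39 for Il7r, which is larger than that of 98.1% of the 14017 genes above background, 0.23 for Csf1r and 0.21 for Csf3r, larger than that of 92.8% and 91.1%. At the other end, Ifnar1 had an SD of 0.035, larger than that of only 2.5% of these genes. In Lxn-/- its SD was 0.0048. Of the 10 receptors, 9 had an SD above the median of these genes, 0.10.

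2 opposed patterns could be seen, and both crossed the genotypes. Csf3r was lowest in WT replicate 3 and Lxn-/- replicate 2, and these were also the lowest pools for Csf2rb and Il3ra, although in Il3ra by small margins. Il7r was highest in the same pools, as were Il6st and Ifngr1. All of the last 3 genes were lower in Lxn-/- replicate 3 than in the other Lxn-/- pools. The likeness of WT replicate 3 and Lxn-/- replicate 2 was not particular to the receptors. Over all 23410 probe sets tested, their deviations from the genotype means correlated at 0.362. The value for WT replicate 1 with Lxn-/- replicate 1 was similar, 0.372. Deviations within a genotype cancel out, which ties such values to each other. The share of all genes with an extreme in these pools was not counted.

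Marker genes of other cells moved with these patterns. Over 15 neutrophil markers the list mean came to 10.76, 10.17 and 8.84 for WT and 10.34, 9.27 and 11.19 for Lxn-/-. The lowest value of 13 of the 15 was in WT replicate 3 or Lxn-/- replicate 2, and the highest of 11 of the 15 in Lxn-/- replicate 3, as for Csf3r. S100a8, a neutrophil alarmin, ranged from 8.42 in WT replicate 3 to 11.82 in Lxn-/- replicate 3, and no neutrophil marker had a mean below background. Without WT replicate 3 and Lxn-/- replicate 2, a choice made after the data were seen, the difference of Csf3r was 0.17 and that of Csf1r -0.043.

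For Il7r, T and NK cell markers had list means of 8.19, 8.11 and 8.44 in WT and 8.13, 8.78 and 8.05 in Lxn-/-, with 8 of 9 highest in WT replicate 3 or Lxn-/- replicate 2. Of these markers Cd3d had a mean below background. WT replicate 3 or Lxn-/- replicate 2 was also highest for 7 of 9 B cell, 6 of 7 erythroid and 6 of 8 stromal and endothelial markers. In the B cell and erythroid lists this was WT replicate 3 each time. The B cell list mean of Lxn-/- replicate 2, 9.99, was below that of WT replicate 1, 10.24. The means of the B cell list ran from 9.87 to 10.46 in WT and from 9.74 to 9.99 in Lxn-/-, and those of the erythroid list from 9.88 to 10.34 and from 9.58 to 10.09. Those of the stromal and endothelial list were 8.56, 8.33 and 9.02 in WT and 8.61, 9.04 and 8.11 in Lxn-/-. Like Il7r and the T and NK list, they were highest in WT replicate 3 and Lxn-/- replicate 2 and lowest in Lxn-/- replicate 3. Their range was wider than that of the T and NK list, so the pattern of Il7r was not particular to T and NK markers. Genes of early lymphoid cells were split. Flt3 was lowest where Il7r was highest, at 11.77 in WT replicate 3 and 11.59 in Lxn-/- replicate 2. Dntt was lowest in Lxn-/- replicate 2, at 9.87. Rag1 and Ly6d were highest in WT replicate 3, at 8.42 and 10.60. The part of any of these cells in the values of Csf3r and Il7r was not tested.

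**Figure D3:**
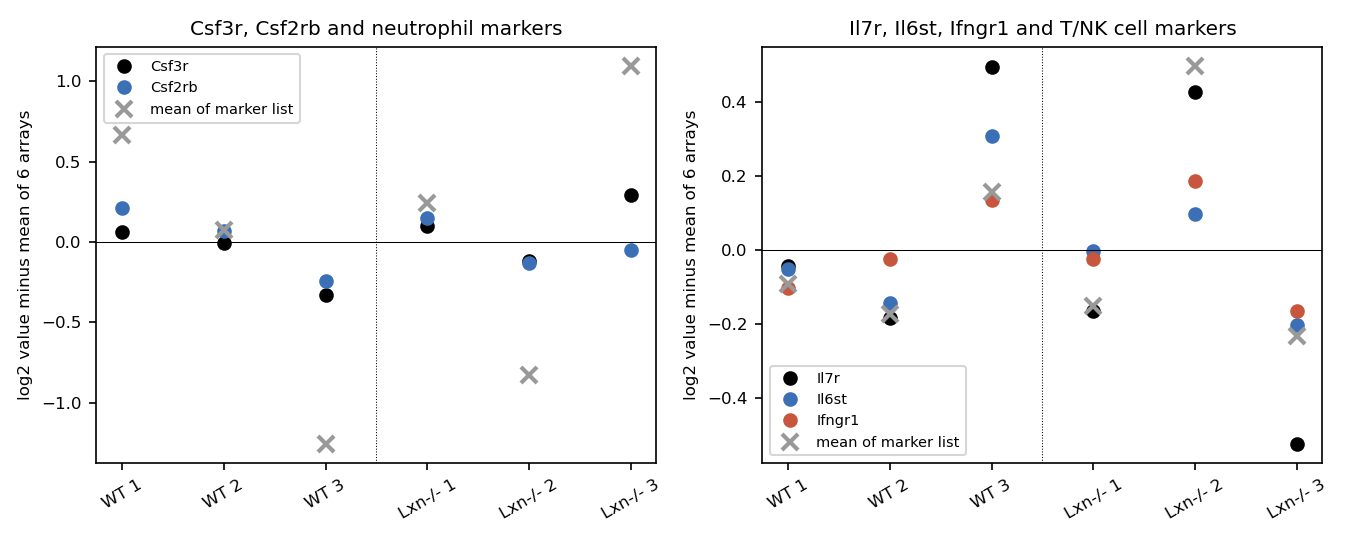
Log2 values minus the mean of the 6 arrays (vertical axis) in each pool for Csf3r and Csf2rb with the mean of 15 neutrophil markers (left) and for Il7r, Il6st and Ifngr1 with the mean of 9 T and NK cell markers (right). Csf3r and the neutrophil markers are lowest in WT replicate 3 and Lxn-/- replicate 2, where Il7r is highest.

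Likeness to other genes was measured for the 3 most variable receptors as the root mean square difference between values centred on each gene's own mean over the 6 arrays. For Il7r the nearest genes were Kitl, the stem cell factor gene (0.052), the hypoxia factor gene Epas1 (0.085) and the mast cell protease gene Cpa3 (0.095). The Kitl probe set had means below background. For Csf1r they were the inhibitory receptor gene Lair1 (0.032), Diaph2 (0.046) and Mrpl54 (0.05), and for Csf3r Scarna17 (0.041), Ltbp3 (0.042) and the cytokine gene Il15 (0.042). With only 6 arrays and 19938 genes, some genes will lie close to any pattern.

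The rest of the cytokine pathway was read from 6 lists of other receptors, ligands, kinases and STATs, inhibitors, targets and transcription factors, of which 128 different genes were measured. None passed an adjusted p of 0.05 in limma, and 8 of 128 had an unadjusted p under 0.05, 6 higher and 2 lower in Lxn-/-, beside 3.9% of all probe sets. Among 31 other receptors, 21 had a higher mean in Lxn-/- and 10 a lower one, with a median of 0.028. The lower ones with an unadjusted p under 0.05 were Il5ra, described above, and Il13ra1, a chain of the receptors for IL-4 and IL-13. Il13ra1 gave 8.78, 8.34 and 8.63 in WT and 8.18, 8.13 and 7.88 in Lxn-/-, without overlap and with a difference of -0.52 (SE 0.13, 95% confidence interval -0.82 to -0.23, adjusted p = 0.993 in limma). The stem cell factor receptor Kit differed by 0.04 (SE 0.069) and Flt3 by 0.067 (SE 0.17).

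Of 22 measured ligand genes, 12 had means below background. Their median difference was -0.043. Lif, which signals through gp130, averaged 7.30 in WT (SD 0.14, n = 3) against 7.54 in Lxn-/- (SD 0.13, n = 3), or 0.24 (SE 0.10) more, and Ctf1, another gp130 ligand, differed by -0.19 (SE 0.084). Probe sets of the interferon alpha genes are close copies and may share signal.

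Downstream of the receptors, 9 measured JAK and STAT genes and Irf9, a partner of STAT proteins in type I interferon signalling, had a median of 0.013, with 0.10 (SE 0.064) for Stat2, which carries type I interferon signals, and 0.077 (SE 0.083) for Stat3, the main STAT of gp130 and G-CSF signals. The 22 inhibitors had a median of -0.031. Socs3, the feedback inhibitor that binds gp130 and the G-CSF receptor, averaged 9.05 in WT (SD 0.15, n = 3) against 9.45 in Lxn-/- (SD 0.39, n = 3), which is 0.40 (SE 0.18, unadjusted p = 0.0604 in limma) more. Its groups overlapped, and its highest value, 9.89, was in Lxn-/- replicate 3. Cish, a feedback inhibitor induced by STAT5, differed by -0.12 (SE 0.10).

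Of 23 measured target genes, 19 had a higher mean in Lxn-/- and 4 a lower one, with a median of 0.12. Over all 19938 genes, 8765 had a higher mean in Lxn-/- and 11173 a lower one, with a median of -0.013. An unadjusted p under 0.05 was found for 4 of the 23 targets, all higher in Lxn-/-, and for 749 of all genes, 256 of them higher and 493 lower. The transcription factor gene Junb averaged 9.89 in WT (SD 0.26, n = 3) against 10.28 in Lxn-/- (SD 0.093, n = 3), which is 0.39 (SE 0.13) more, and Id1, which encodes an inhibitor of bHLH factors, differed by 0.28 (SE 0.084). Both are also induced by many other stimuli. The other targets with an unadjusted p under 0.05 were Mx1 and Oas2, which interferons induce. Each differed by 0.51 (SE 0.19 and 0.21), the largest difference of the list. Only in Mx1 did the groups not overlap. The other interferon-induced targets differed less, from 0.05 for Oasl2 to 0.29 for Ifit3. The 20 genes of transcription factors that act on receptor genes had a median of 0.0011. Klf4 differed by 0.48 (SE 0.20), with an SD of 0.47 in WT, and Foxo1, an activator of Il7r in lymphocytes, by -0.16 (SE 0.089). The groups of both genes overlapped.

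**Figure D4:**
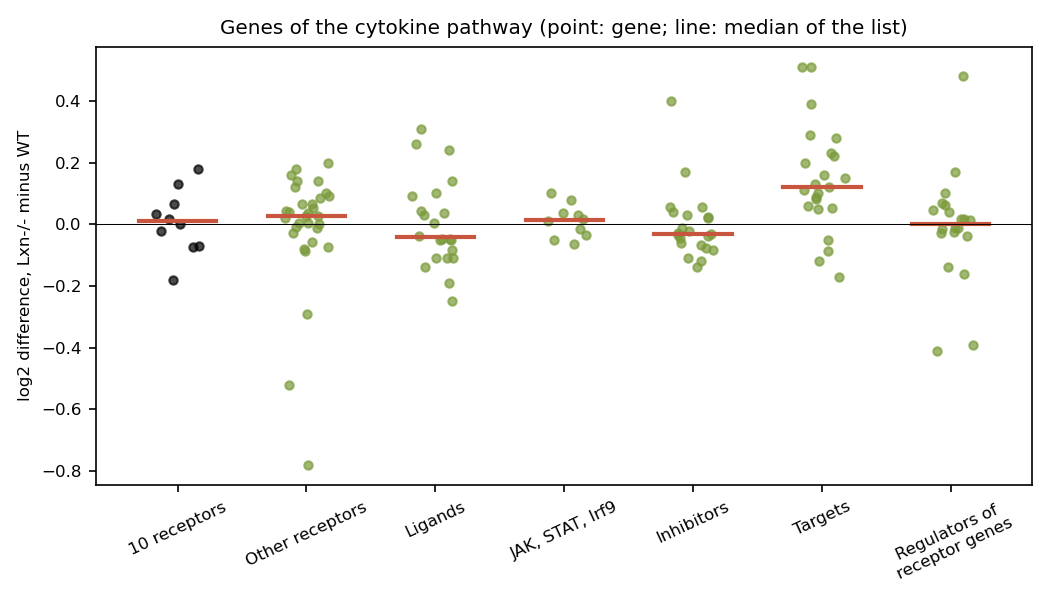
Log2 difference between genotypes (vertical axis) for each of the 10 receptor genes and each measured gene of 6 other lists of the cytokine pathway, with a line at the median of each list. The targets have the highest median, 0.12, and the lowest points are Il5ra at -0.78 and Il13ra1 at -0.52 among the other receptors.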

How the data were processed

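The deposited values are on a log2 scale after RMA, a step the authors ran, and the submitters' processing notes list Partek 6.0 beside it. For the background step and the probe set version the sources used here give nothing. The table had 35557 probe sets. GEO's platform annotation gave 21789 of them 1 symbol and 1621 several, and left 12147 unnamed here. Genes were represented by their brightest probe set with a single symbol. Lxn-/- and WT arrays were compared in limma 3.58.1 under R 4.3.3 (lmFit and eBayes, no covariates, 3 arrays against 3, two-sided) over 23410 probe sets with Benjamini-Hochberg adjustment, after the step was tested on simulated data. Named beside the 10 receptors were some of their partner chains and the 2 genes of lowest unadjusted p in each pathway list. The 3 genes nearest to each of the 3 most variable receptors were named too. Other genes were chosen after their values were seen. The members and all lists were chosen with earlier results of these data known. Alternatives were other scalings, filters, weights, variance priors and probe set summaries, single arrays left out and the replicate number as a block. The number of arrays limits the precision.

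Replicate numbers are shared by the genotypes in the labels. The correlation of deviations from the genotype means between same-numbered arrays was 0.372, -0.0719 and -0.0807. Between arrays of different number it ran from -0.336 to 0.362. Deviations from a group's own mean cancel out within the group, which ties these values to each other. They cannot decide whether the numbers pair the pools.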

Additional observations from a re-analysis of the deposited data

How the results depend on the processing

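No receptor gene and no other gene of the cytokine pathway passed under any alternative in which they were tested. Without WT replicate 3 and Lxn-/- replicate 2 together, only differences of the receptors were computed, and no test was run. With all arrays, signs turned for Il3ra (-0.0048) and Ifngr1 (0.013) with quantile normalization, for Il3ra (-0.027) and Ifnar1 (-0.011) with a common median, and for Il6ra (-0.0025), Il6st (0.037) and Ifngr1 (0.023) with array weights. Without WT replicate 3 and Lxn-/- replicate 2, Csf1r turned to -0.043, while Csf2ra was -0.16 and the median of the receptors -0.018. Leaving out single arrays moved the difference between -0.02 and 0.25 for Csf1r, -0.15 and 0.075 for Csf2ra, -0.15 and 0.075 for Csf2rb, 0.067 and 0.29 for Csf3r, -0.06 and 0.10 for Il3ra, 0.007 and 0.15 for Il6ra, -0.17 and 0.059 for Il6st, -0.43 and 0.04 for Il7r, -0.093 and 0.081 for Ifngr1 and 0.0069 and 0.049 for Ifnar1. The cause was not tested. Genotypes without overlap were counted in 0 receptors with quantile normalization and 0 with a common median. When single arrays were left out they were counted in 1 to 2, the second being Csf3r without Lxn-/- replicate 2. Groups of fewer arrays separate more easily. The share of all probe sets without overlap was not counted under these alternatives, so these counts have nothing to be set against. With the replicate block, 0 receptors passed and the median difference was 0.009. With a common median, the median difference of the receptors was -0.036. That scaling moved the median difference over the probe sets tested by -0.0451, and it shifted every gene, the targets included, by the same amount. Il5ra stayed between -0.94 and -0.67 and Il13ra1 between -0.64 and -0.37 over 14 alternatives each.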
